A study of Sus scrofa with 12 samples.

Results

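The end of a calcification course was compared with its start in cultured interstitial cells of the pig aortic valve. These are fibroblasts of the leaflet, which make its matrix. Stage 3+DMSO libraries were set against Stage 1 libraries (n = 3 each), which were 6 of the 12 libraries of the study. Both groups were pig (Sus scrofa) cells, with the tissue labelled as aorta, grown in DMEM on glass, which the labels give as the stimulus of calcification. Stage 3+DMSO cultures received the solvent DMSO at Stage 3, and Stage 1 cultures were taken on day 5 with no solvent named. Growth times followed when a stage was seen in the culture; the longest in the protocol was 12 days, and the day of each Stage 3+DMSO library is not given. Stage, time in culture and DMSO therefore cannot be told apart. The 3 Stage 2 libraries (day 8) were used only to say at which step a change came. The labels call the replicates biological but name no animals, so a p-value covers only the variation among cultures that may share an animal.

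Valve interstitial cells are quiescent in the healthy leaflet and can become contractile, myofibroblast-like cells or cells with a bone-forming programme. Calcification is held back by matrix-bound and secreted inhibitors such as MGP and by pyrophosphate, which stops crystals from growing. Stiff substrates such as glass favour the contractile state, in which stress fibres made with smooth muscle actin pull on the matrix. Mineral itself was not measured in the data used here.

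The 6 libraries had totals of 13188023 to 20953807, recovered from the deposited RPKM values (reads per kilobase of exon, scaled to the library total). Of 22861 genes, 13046 had at least 1 RPKM in at least 3 of the 12 libraries and were tested. All 10 valve interstitial and fibroblast markers were expressed, and their summed level was 26460 to 29220 RPKM in Stage 3+DMSO and 20550 to 21470 RPKM in Stage 1. Of the leukocyte markers, 10 of 14, PTPRC among them, stayed below 1 RPKM, as did 8 of 8 epithelial, 3 of 4 erythroid and 8 of 11 cardiomyocyte markers. Of 13 endothelial markers only 3 did, VWF, KDR and TEK. The endothelial markers summed to 97.22 to 122.9 RPKM in Stage 3+DMSO and 92.25 to 100.4 RPKM in Stage 1 (exact permutation p = 0.2). Stage 3+DMSO replicate 1 stood apart from the other libraries of its group. The read counts of its genes differed from theirs with a chi-square of 38.3 and 44.4 per degree of freedom, against 12.4 between replicates 2 and 3. The median log2 ratio of last to first exon, a measure of RNA quality, was 0.203 ± 0.017 in Stage 3+DMSO and 0.270 ± 0.017 in Stage 1 (SD, n = 3 each; exact permutation p = 0.1, two-sided, the smallest that 3 against 3 allows). Its part in the results was not tested.

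Many gene groups differed between the ends of the course. Most tested calcification inhibitors, cartilage-type genes, lysosomal genes and genes of resting fibroblasts were higher in Stage 3+DMSO, as was elastin. Most contractile, glycolysis, cholesterol and hypoxia-response genes were lower, as were IL6, CCL2 and PTGS2. In limma's test 6226 genes (47.7%) passed an adjusted p of 0.05, of which 3975 (30.5% of those tested) were higher and 2251 (17.3%) lower in Stage 3+DMSO. At least 2-fold changes numbered 668 higher (5.12%) and 297 lower (2.28%), and at least 8-fold changes 13 and 6. The libraries of the groups did not overlap for 7691 genes (59.0%), so a lack of overlap in a named gene was common. Counts of gene groups are to be read against 30.5% higher and 17.3% lower over all tested genes. Log2 changes here are of RPKM + 1, Stage 3+DMSO minus Stage 1, with a median of 0.10 over all tested genes. Rescaling every library by its median ratio moved this median by -0.11 and gave 2960 higher and 3162 lower, so small changes of one sign depend on the scale. A lower level can be fewer cells of a type or less RNA per cell, which cannot be told apart in bulk RNA.

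**Figure D1:**
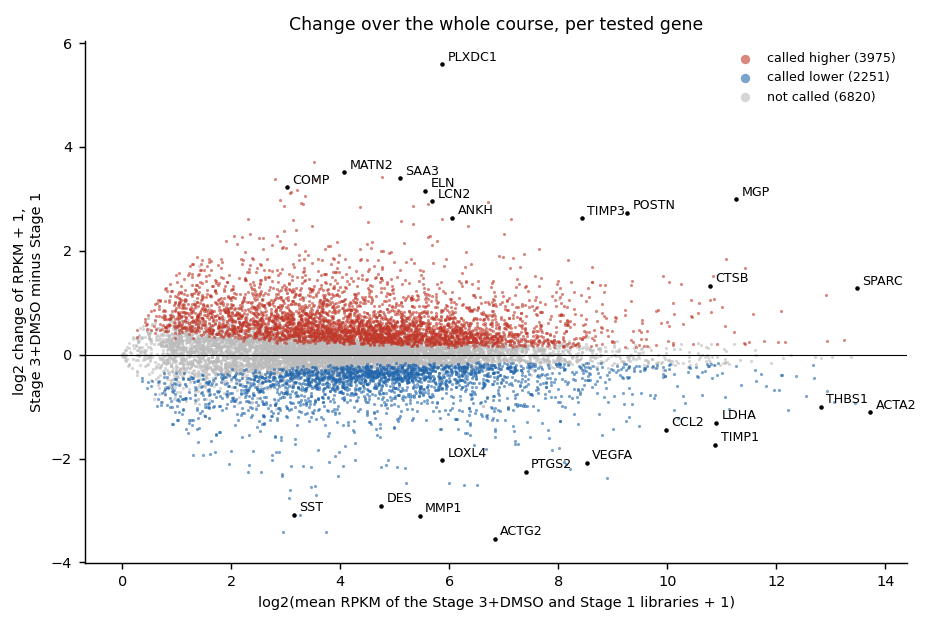
Log2 change of RPKM + 1 (vertical axis, Stage 3+DMSO minus Stage 1) against the log2 of the mean RPKM of both groups + 1 (horizontal axis) for the 13046 tested genes, 1 point a gene. Genes called higher (3975) are red, genes called lower (2251) blue, and the others grey; PLXDC1 stands alone at the top (5.59) and ACTG2 lies lowest (-3.55).

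PLXDC1 had the largest rise on the log2(RPKM + 1) scale. It encodes a receptor-like membrane protein known from tumour blood vessels. Its level was 121, 135 and 85.5 RPKM in Stage 3+DMSO and 1.496, 1.32 and 1.22 RPKM in Stage 1, a log2 change of 5.59 (SE 0.17, limma adjusted p = 8.64e-10). Its gene (ENSSSCG00000017511) lies on chromosome 12 from 23526394 to 23586953, plus strand, in the deposited gene table, whose genome build is not given. The lowest Stage 3+DMSO library was far above the highest Stage 1 library. As a ratio of mean RPKM, PLXDC1 was 84.6-fold higher and TMEM100 96.3-fold, the last from 10 reads in the Stage 1 libraries. The next largest rises on the log2 scale held several secreted and matrix proteins. MATN2, a matrilin that links collagen and proteoglycan networks, had 28.3, 32.0 and 29.8 RPKM in Stage 3+DMSO and 2.06, 1.23 and 1.96 RPKM in Stage 1 (log2 change 3.51, SE 0.20, limma adjusted p = 6.86e-08). PTN, the heparin-binding growth factor pleiotrophin, had 152, 241 and 159 RPKM against 21.4, 24.8 and 21.3 RPKM in Stage 1, and the groups did not overlap. S100A1, a calcium-binding protein, was more uneven, with 24.9, 47.6 and 74.2 RPKM in Stage 3+DMSO and 2.94, 2.27 and 4.90 RPKM in Stage 1 (log2 change 3.43).

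ACTG2, a smooth muscle actin, had the largest fall on the log2(RPKM + 1) scale, though not as a ratio of RPKM. It had 23.4, 17.4 and 11.9 RPKM in Stage 3+DMSO and 207, 194 and 227 RPKM in Stage 1, 11.9-fold lower (log2 change -3.55, SE 0.27, limma adjusted p = 6.79e-07). MMP1, an interstitial collagenase, had 6.46, 8.03 and 10.3 RPKM in Stage 3+DMSO and 73.7, 76.1 and 83.0 RPKM in Stage 1 (log2 change -3.10, SE 0.13). SST, which encodes the peptide hormone somatostatin, had 0.579, 1.55 and 0.626 RPKM against 17.0, 13.6 and 14.1 RPKM in Stage 1, 16.2-fold lower as a ratio of means. None of these groups overlapped. Both IDs named GZMA, the protease granzyme A of cytotoxic lymphocytes, fell, and the higher one had 1.35, 1.27 and 1.22 RPKM in Stage 3+DMSO and 22.6, 22.3 and 25.5 RPKM in Stage 1 (18.3-fold lower). They lie side by side on chromosome 16 and may share reads. The summed level of the 14 leukocyte markers, GZMA included, was 238 to 280 RPKM in Stage 3+DMSO and 270 to 311 RPKM in Stage 1 (exact permutation p = 0.2). Of the 14, 10 stayed below 1 RPKM, among them PTPRC, which all leukocytes carry. Of the 4 tested, 1 was higher and 2, GZMA among them, were lower. Which cells made GZMA was not tested. Other large falls were GABBR2, a subunit of a GABA receptor (log2 change -2.54), LIPG, endothelial lipase (-2.37), and TMEM158 (-2.47).

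The inhibitors of calcification were higher as a group at the end of the course. Of 11 tested members 7 were higher and 1 lower, with a median log2 change of 0.56. MGP, the vitamin K-dependent matrix Gla protein, was the most abundant of them. It had 3840, 4902 and 4392 RPKM in Stage 3+DMSO and 515, 559 and 571 RPKM in Stage 1, 7.99-fold higher (log2 change 2.99, SE 0.08, limma adjusted p = 5.90e-10). ANKH, which exports pyrophosphate or its precursor ATP from cells, had 71.0, 152 and 119 RPKM in Stage 3+DMSO and 17.7, 16.3 and 16.3 RPKM in Stage 1 (log2 change 2.63, SE 0.20, limma adjusted p = 5.72e-07). GAS6, another Gla protein and a ligand of TAM receptors, had 128, 125 and 160 RPKM in Stage 3+DMSO and 23.1, 24.0 and 24.0 RPKM in Stage 1. In all 3 the groups were well separated.

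The enzymes around them moved less. ENPP1, which makes pyrophosphate from ATP, had 27.5, 25.6 and 25.4 RPKM in Stage 3+DMSO and 13.6, 12.6 and 13.1 RPKM in Stage 1 (log2 change 0.95, limma adjusted p = 2.10e-06). NT5E, which turns AMP into adenosine downstream of it, changed by 0.78 and ABCC6, a transporter needed for ATP release, by 0.56. Of the 9 tested genes of phosphate and pyrophosphate handling 5 were higher and 1 lower, the last being PPA1, a cytosolic pyrophosphatase (log2 change -0.44). GGCX, the carboxylase that activates Gla proteins, was the lower member of the inhibitors, with 51.5, 42.1 and 45.6 RPKM against 60.0, 51.6 and 53.7 RPKM in Stage 1. Its change was small (log2 change -0.25, limma adjusted p = 0.0214) and did not pass without Stage 3+DMSO replicate 2 or 3, without Stage 1 replicate 1, or in a fit of both groups alone (adjusted p = 0.0943, 0.0564, 0.0974 and 0.0582, in a range of 0.00317 to 0.0974). TNFRSF11B, the decoy receptor osteoprotegerin, had a log2 change of -0.20 and did not pass (limma adjusted p = 0.191).

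Genes of bone-forming cells did not move as a block. Of 9 tested members 4 were higher and 1 lower (median log2 change 0.33). RUNX2, the transcription factor that starts the osteoblast programme, was the one that fell. It had 9.38, 7.57 and 9.70 RPKM in Stage 3+DMSO and 19.8, 20.6 and 21.0 RPKM in Stage 1, 2.3-fold lower (log2 change -1.12, SE 0.10, limma adjusted p = 1.62e-06), with no overlap. A shorter gene model of the same name, on the other strand of chromosome 7, fell by 1.08 on the log2 scale. SPARC, or osteonectin, a collagen- and calcium-binding glycoprotein, rose to 17368, 15664 and 15633 RPKM in Stage 3+DMSO, against 6723, 6771 and 6519 RPKM in Stage 1, and was the most abundant transcript of Stage 3+DMSO. BMP2, a bone-inducing ligand, was low and rose (log2 change 1.32; 2.49, 7.07 and 5.10 RPKM in Stage 3+DMSO and 1.00, 1.98 and 0.858 RPKM in Stage 1).

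SPP1 and BGLAP, which encode osteopontin and osteocalcin, did not pass the test. SPP1 had 10.1, 30.5 and 35.8 RPKM in Stage 3+DMSO and 15.3, 17.6 and 20.7 RPKM in Stage 1, and replicate 1 alone lay below all Stage 1 libraries (log2 change 0.33, limma adjusted p = 0.424). Without that library SPP1 passed, with a log2 change of 0.86 (adjusted p = 9.03e-05, in a range of 9.03e-05 to 1.00 over all alternatives). It also passed with library quality weights and all libraries kept (log2 change 0.61, limma adjusted p = 0.0319). BGLAP was close to the detection limit, with 1.27, 1.04 and 0.300 RPKM in Stage 3+DMSO and 3.49, 1.27 and 1.82 RPKM in Stage 1 (limma adjusted p = 0.0580). It passed as lower in 5 alternatives, which were leaving out Stage 3+DMSO replicate 1 or Stage 1 replicate 2 (adjusted p = 0.0437 and 0.0336), median-ratio rescaling, quantile normalization and library quality weights (0.0427, 0.0183 and 0.0412), in a range of 0.0183 to 0.232. Without Stage 3+DMSO replicate 1 the group counted 5 higher and 3 lower of 9, with a median log2 change of 0.69. COL1A1 and ALPL were not analysed here.

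**Figure D2:**
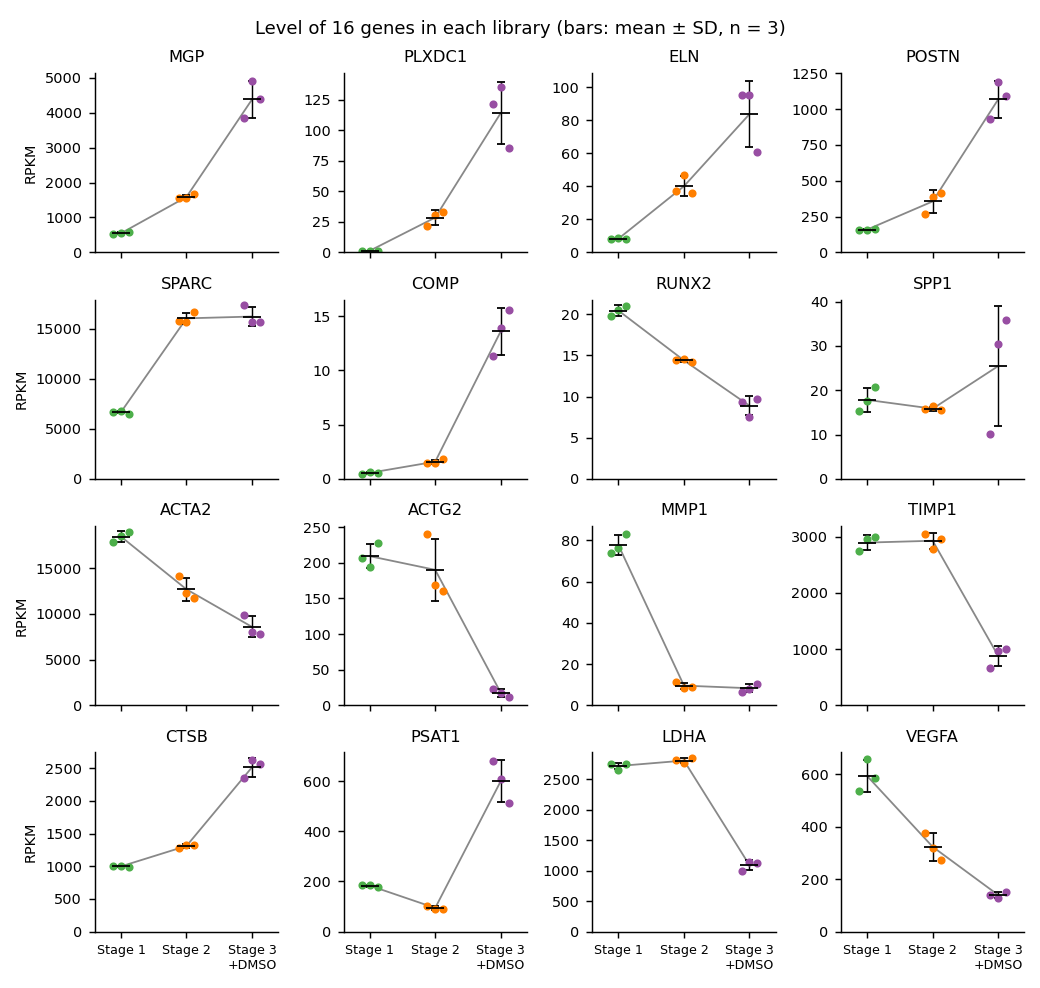
RPKM (vertical axes, linear from 0) of 16 genes in each library of Stage 1, Stage 2 and Stage 3+DMSO (horizontal axes), with dots for libraries, bars for mean ± SD (n = 3) and grey lines joining the means. MGP and POSTN climbed at both steps, SPARC and MMP1 changed mostly up to Stage 2, ACTG2, TIMP1 and LDHA fell mostly after it, and PSAT1 was lowest at Stage 2; for SPP1 the first Stage 3+DMSO library lies lowest.

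Cartilage-type genes were among the groups with the largest median (0.95), with 9 of 12 tested members higher and 1 lower. COMP, a matrix protein that organises collagen fibrils in cartilage and tendon, had 11.3, 13.9 and 15.6 RPKM in Stage 3+DMSO and 0.463, 0.661 and 0.530 RPKM in Stage 1 (log2 change 3.23, SE 0.14, limma adjusted p = 9.29e-09). ACAN, the large cartilage proteoglycan aggrecan, had 6.97, 9.13 and 9.11 RPKM in Stage 3+DMSO and 1.07, 1.07 and 0.749 RPKM in Stage 1 (log2 change 2.26). MATN4, another matrilin, had 118, 58.0 and 80.0 RPKM against 10.505, 10.045 and 9.806 RPKM in Stage 1. SOX9, the transcription factor of chondrocytes, had 28.8, 28.8 and 34.1 RPKM in Stage 3+DMSO and 14.7, 14.8 and 14.7 RPKM in Stage 1, 2.07-fold higher. CHAD, or chondroadherin, was the lower member (log2 change -0.73, limma adjusted p = 0.0205), and did not pass without Stage 3+DMSO replicate 1 or without Stage 1 replicate 2 or 3 (adjusted p = 0.0826, 0.0544 and 0.0936, in a range of 0.00712 to 0.0936).

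Elastic fibre genes split evenly, with 8 of 20 higher and 8 lower (median log2 change 0.09, or -0.02 after median-ratio rescaling). ELN, which encodes elastin, had 95.3, 95.4 and 60.7 RPKM in Stage 3+DMSO and 7.98, 8.80 and 8.14 RPKM in Stage 1, 10.1-fold higher (log2 change 3.16, SE 0.16, limma adjusted p = 3.03e-08). MFAP2, a microfibril protein, had 91.4, 109 and 97.5 RPKM against 13.2, 15.5 and 17.4 RPKM in Stage 1. FBLN5, which carries elastin to microfibrils, rose with a log2 change of 1.52. LOXL4, a lysyl oxidase, had 19.2, 22.3 and 24.8 RPKM in Stage 3+DMSO and 93.5, 91.9 and 94.6 RPKM in Stage 1, 4.22-fold lower (log2 change -2.04, SE 0.10). LOX itself changed by -0.33 and PLOD2, a lysyl hydroxylase of collagen, by -0.50, whereas LOXL1, another lysyl oxidase, rose by 1.11. EMILIN2, a glycoprotein of elastic fibres, fell by 0.64 on the log2 scale.

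Of 20 collagen genes 10 were higher and 5 lower (median log2 change 0.19), or 7 higher and 5 lower after median-ratio rescaling. COL14A1, a fibril-associated collagen, had 278, 205 and 184 RPKM in Stage 3+DMSO and 93.5, 81.6 and 79.4 RPKM in Stage 1 (log2 change 1.36, SE 0.12). COL12A1, of the same class, had 392.25, 392.99 and 427.14 RPKM in Stage 3+DMSO and 855, 748 and 735 RPKM in Stage 1 (log2 change -0.94, SE 0.10). The relatives therefore moved in opposite directions, and neither overlapped between the groups, as was so for 59.0% of all tested genes. The fibrillar COL3A1 rose by 0.84 and COL1A2 by 0.27, while the basement membrane chains COL4A1 and COL4A2 fell by 0.31 and 0.35 on the log2 scale.

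Among 18 small leucine-rich and large proteoglycans 9 were higher and 4 lower. ASPN, or asporin, had 230, 201 and 230 RPKM in Stage 3+DMSO and 73.8, 78.1 and 87.7 RPKM in Stage 1, and PODN, or podocan, 49.8, 49.0 and 45.1 RPKM against 13.1, 13.1 and 13.1 RPKM in Stage 1. DCN, or decorin, which binds collagen and TGF-beta, had 385, 337 and 376 RPKM in Stage 3+DMSO and 564, 562 and 582 RPKM in Stage 1 (log2 change -0.64, limma adjusted p = 1.47e-05). The groups did not overlap for any of the 3. GPC4, a glypican on the cell surface, fell furthest of this group (log2 change -1.09).

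Matricellular proteins, which signal from the matrix without building it, also split, with 7 of 16 higher and 5 lower. POSTN, or periostin, had 929, 1187 and 1089 RPKM in Stage 3+DMSO and 158, 157 and 164 RPKM in Stage 1, 6.7-fold higher (log2 change 2.73, SE 0.14, limma adjusted p = 2.67e-08). SPARCL1, a relative of SPARC, rose by 2.06. THBS1, or thrombospondin 1, an activator of TGF-beta, had 4468, 4546 and 5504 RPKM in Stage 3+DMSO and 10134, 9396 and 9395 RPKM in Stage 1 (log2 change just short of 2-fold, limma adjusted p = 2.29e-06). TGFBI, a TGF-beta-induced adhesion protein, fell by 1.43 and NOV, a CCN family protein, by 1.33 on the log2 scale.

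Matrix proteases and their inhibitors were mostly higher, in 15 of 25 members, with 7 lower (median log2 change 0.38). The gelatinase MMP2 had 2635, 2624 and 2858 RPKM in Stage 3+DMSO and 910, 970 and 941 RPKM in Stage 1 (log2 change 1.52, SE 0.07), and its membrane-bound activator MMP14 had 1514, 1832 and 1948 RPKM against 676, 692 and 683 RPKM in Stage 1. The tissue inhibitors moved apart. TIMP3, which is bound to the matrix, had 523, 621 and 642 RPKM in Stage 3+DMSO and 101, 83.7 and 103 RPKM in Stage 1 (log2 change 2.62, SE 0.09), and TIMP1 had 667, 971 and 1001 RPKM in Stage 3+DMSO and 2749, 2954 and 2990 RPKM in Stage 1 (log2 change -1.74, SE 0.12). ADAMTS4, an aggrecan-cleaving protease, fell by 1.10 on the log2 scale.

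Contractile and activated-cell genes fell. Of 20 tested members 16 were lower and 1 higher, with a median log2 change of -0.57. ACTA2, the smooth muscle actin that marks myofibroblasts and the most abundant transcript of Stage 1, had 9892, 8014 and 7806 RPKM in Stage 3+DMSO and 17824, 18548 and 18957 RPKM in Stage 1 (log2 change -1.11, SE 0.11, limma adjusted p = 3.93e-06). CNN1, or calponin, had 385, 373 and 395 RPKM against 856, 893 and 892 RPKM in Stage 1. DES, or desmin, a muscle intermediate filament, had 2.62, 11.8 and 4.14 RPKM in Stage 3+DMSO and 42.2, 45.0 and 49.5 RPKM in Stage 1 (log2 change -2.91, SE 0.33). None of them overlapped between groups. CALD1, MYH10 and SYNPO2 did not pass, with log2 changes of -0.00 to -0.14. TNS3, a focal adhesion protein, was the member that rose (log2 change 1.08).

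Beside them, the skeletal muscle marker ACTA1 had 110, 135 and 114 RPKM in Stage 3+DMSO and 277, 310 and 304 RPKM in Stage 1 (log2 change -1.31), while 6 of the 8 skeletal muscle markers, MYOD1 and MYOG among them, stayed below 1 RPKM. The sum of these markers was 110.4 to 136.4 RPKM in Stage 3+DMSO and 279 to 311.7 RPKM in Stage 1 (exact permutation p = 0.1), and its part in the contractile result was not tested. Genes of the kind that YAP induces under tension were lower in 10 of 13 members and higher in 1 (median log2 change -0.73). ANKRD1, a nuclear and sarcomeric ankyrin repeat protein, had 13.5, 23.2 and 19.7 RPKM in Stage 3+DMSO and 97.0, 108 and 115 RPKM in Stage 1 (log2 change -2.47, SE 0.15). F3, the coagulation starter tissue factor, had 0.581, 1.05 and 0.521 RPKM against 6.62, 8.15 and 6.82 RPKM in Stage 1. AREG, an EGF receptor ligand, fell by 2.04 on the log2 scale. CTGF, often used as a readout of YAP, did not pass, with 2213, 2135 and 2238 RPKM in Stage 3+DMSO and 2074, 1984 and 2026 RPKM in Stage 1 (log2 change 0.11, limma adjusted p = 0.151).

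Genes of quiescent and progenitor fibroblasts rose in 14 of 17 members and fell in 2 (median log2 change 0.87). CLU, the secreted chaperone clusterin, had 3084, 3608 and 3450 RPKM in Stage 3+DMSO and 909, 949 and 969 RPKM in Stage 1 (log2 change 1.84, SE 0.08). C7, a complement component of resting fibroblasts, had 18.3, 13.3 and 5.59 RPKM against 1.35, 1.42 and 1.23 RPKM in Stage 1. ALDH1A1, an enzyme of retinoic acid synthesis, had 12.8, 5.05 and 4.79 RPKM in Stage 3+DMSO and 0.428, 0 and 0.477 RPKM in Stage 1, from 323 and 11 reads over each group's libraries. The PDGF receptors moved in opposite directions. PDGFRB had 200, 208 and 235 RPKM in Stage 3+DMSO and 109, 111 and 105 RPKM in Stage 1, and PDGFRA 74.0, 63.2 and 58.0 RPKM in Stage 3+DMSO and 118, 98.7 and 106 RPKM in Stage 1. Each receptor name belonged to 2 IDs, which changed alike. IGF1, the growth factor, was the other member that fell (log2 change -0.79).

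**Figure D3:**
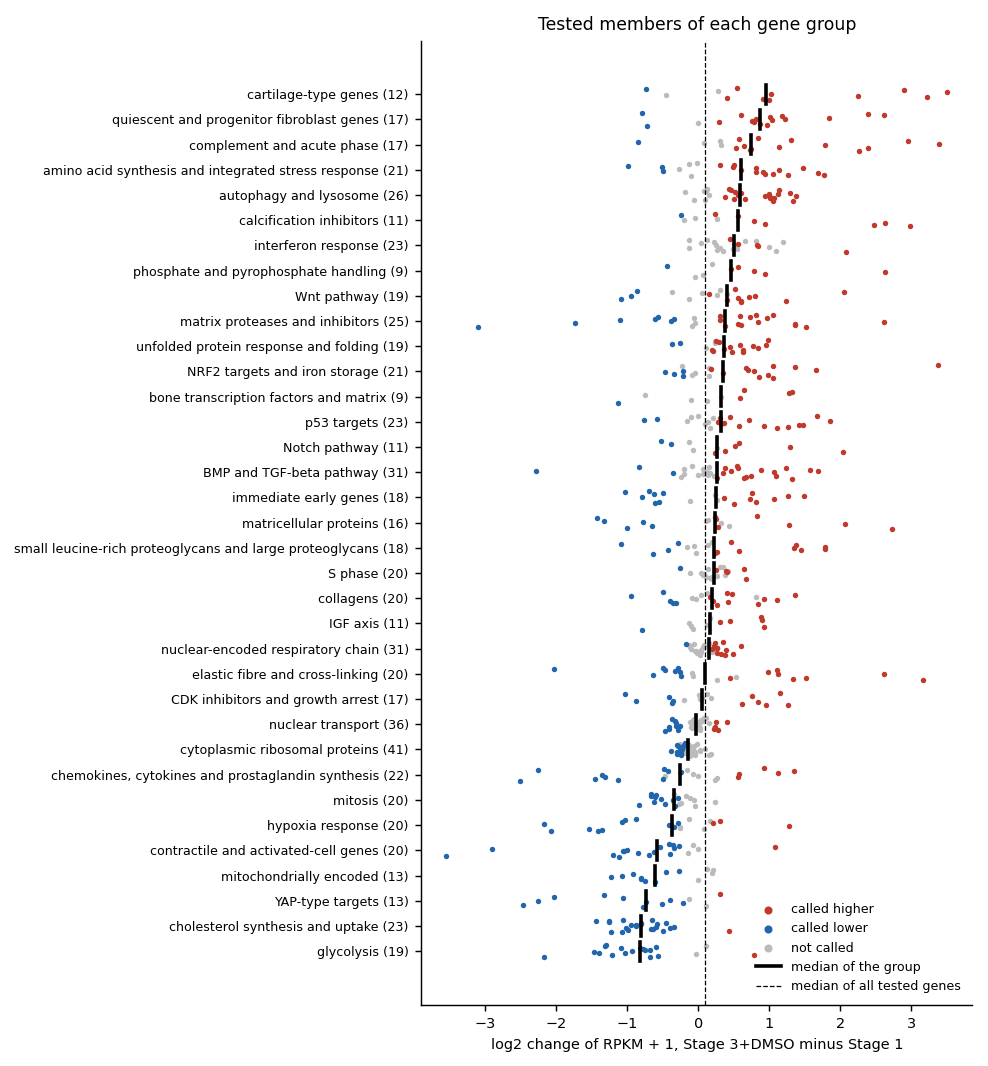
Log2 change of RPKM + 1 (horizontal axis, Stage 3+DMSO minus Stage 1) of every tested member of the gene groups with at least 5 tested members, cell type marker groups left out (rows, with the number tested), with called genes in red or blue, others in grey, and thick bars at group medians. The dashed line is the median of all tested genes (0.10); medians of the groups shown run from 0.95 for cartilage-type genes down to -0.82 for glycolysis.

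Mitosis genes were called in 1 direction. Of 20 members none was higher (0) and 11 were lower, with a median log2 change of -0.35. CDC20, which activates the anaphase-promoting complex, had 45.1, 48.5 and 45.5 RPKM in Stage 3+DMSO and 72.2, 74.9 and 74.1 RPKM in Stage 1 (log2 change -0.66, SE 0.08), and the mitotic cyclin CCNB1 52.1, 40.3 and 32.3 RPKM against 81.0, 67.8 and 72.0 RPKM in Stage 1. MKI67, the marker of cycling cells, had 11.1, 9.15 and 8.93 RPKM in Stage 3+DMSO and 13.9, 12.5 and 10.9 RPKM in Stage 1, which overlap (log2 change -0.32, limma adjusted p = 0.0415). Its call was lost in 8 alternatives. They include leaving out Stage 3+DMSO replicate 2 or 3 or Stage 1 replicate 1 or 2 (adjusted p = 0.119, 0.132, 0.160 and 0.0993, in a range of 0.00608 to 0.160).

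Of 20 S phase genes 5 were higher and 1 lower (median log2 change 0.22), both smaller shares than over all tested genes. The difference between these groups was not tested. PCNA, the replication clamp, had 49.7, 60.6 and 67.5 RPKM in Stage 3+DMSO and 33.6, 35.9 and 40.4 RPKM in Stage 1 (log2 change 0.67, SE 0.13). Without Stage 3+DMSO replicate 1, 11 were higher and none lower (0), with a median of 0.47. Median-ratio rescaling left 2 higher. Of the genes of growth arrest 6 of 17 were higher (35.3%) and 5 lower (29.4%), against 30.5% and 17.3% of all tested genes. Their median of 0.06 became -0.05 after median-ratio rescaling. CDKN2A, the locus of p16, had 11.3, 9.76 and 13.4 RPKM in Stage 3+DMSO and 3.84, 3.93 and 4.74 RPKM in Stage 1 (log2 change 1.26), and MYC 31.0, 23.3 and 21.2 RPKM against 48.2, 55.5 and 52.8 RPKM in Stage 1. Of 23 p53 targets 14 were higher and 2 lower (median 0.32). PLK2, a stress-responsive kinase, rose by 1.86, the apoptosis inducer BBC3 by 1.27 and MDM2, which degrades p53, by 1.12, whereas DDB2, a DNA damage sensor, changed by -0.58.

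Of 19 glycolysis genes 16 fell and 1 rose, and the median log2 change was -0.82. LDHA, which makes lactate, had 998, 1151 and 1128 RPKM in Stage 3+DMSO and 2756, 2655 and 2747 RPKM in Stage 1, 2.49-fold lower (log2 change -1.32, SE 0.06, limma adjusted p = 1.56e-08). HK2, the inducible hexokinase, had 8.45, 13.0 and 16.3 RPKM against 58.8, 56.4 and 60.6 RPKM in Stage 1, and GAPDH 2875, 3622 and 3248 RPKM against 5135, 5113 and 5313 RPKM. None of the 3 overlapped. PFKM, the muscle form of phosphofructokinase, was the member that rose (log2 change 0.78).

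Hypoxia-response genes were lower in 12 of 20 members and higher in 3 (median log2 change -0.37). VEGFA, the vascular growth factor, had 140, 127 and 152 RPKM in Stage 3+DMSO and 537, 656 and 585 RPKM in Stage 1, 4.25-fold lower (log2 change -2.08, SE 0.11). BNIP3, a mitophagy receptor, had 210, 241 and 238 RPKM against 654, 684 and 663 RPKM in Stage 1. EGLN3, an oxygen-sensing prolyl hydroxylase that the hypoxia response normally raises, rose, with 129.1, 138.2 and 123.5 RPKM in Stage 3+DMSO and 52.7, 53.6 and 52.5 RPKM in Stage 1.

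Mitochondrially encoded transcripts were lower. Of 13 genes encoded in mitochondria 9 were lower and none higher (0), with a median log2 change of -0.61. COX1, a subunit of cytochrome oxidase, had 8033, 7024 and 7992 RPKM in Stage 3+DMSO and 13864, 15557 and 14274 RPKM in Stage 1. Mitochondrial genes held 2.94 ± 0.261% of all RPKM in Stage 3+DMSO and 4.53 ± 0.193% in Stage 1 (SD, n = 3 each; exact permutation p = 0.1). Of 31 nuclear genes of the respiratory chain 12 were higher and 1 lower (median 0.15), or 6 higher and 4 lower after median-ratio rescaling.

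Cholesterol synthesis and uptake fell in 22 of 23 members (median log2 change -0.80). INSIG1, which holds back sterol synthesis and is itself induced when sterols are low, had 58.4, 63.8 and 61.2 RPKM in Stage 3+DMSO and 164, 163 and 175 RPKM in Stage 1 (log2 change -1.44, SE 0.07, limma adjusted p = 1.48e-08). HMGCS1, an early enzyme of the mevalonate pathway, had 77.6, 80.0 and 73.7 RPKM in Stage 3+DMSO and 160, 157 and 175 RPKM in Stage 1 (log2 change -1.08). The groups did not overlap for either gene. PMVK, a kinase of the same pathway, was the member that rose (log2 change 0.44).

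Amino acid synthesis and integrated stress response genes rose in 14 of 21 members and fell in 3 (median log2 change 0.61). PSAT1, an enzyme of serine synthesis, had 679, 609 and 511 RPKM in Stage 3+DMSO and 186, 186 and 179 RPKM in Stage 1 (log2 change 1.69, SE 0.09, limma adjusted p = 4.50e-08). ATF5, a transcription factor of this response, had 85.1, 54.4 and 49.2 RPKM against 16.9, 18.7 and 15.9 RPKM in Stage 1. The ATF4 transcript had a log2 change of -0.11 and did not pass. ATF4 protein, which drives these genes, was not measured in the data used here. CEBPB, a partner of ATF4, had 99.6, 102.1 and 123.3 RPKM in Stage 3+DMSO and 247, 201 and 202 RPKM in Stage 1 (log2 change -0.99). Of 19 genes of the unfolded protein response 14 were higher and 2 lower (median 0.36), with the sensor ATF6 at 0.98 and the chaperone HSPA5 at 0.63.

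Lysosomal and autophagy genes rose in 19 of 26 members and none was called lower (0), with a median log2 change of 0.59. CTSB, a lysosomal protease, had 2353, 2625 and 2561 RPKM in Stage 3+DMSO and 998, 1006 and 989 RPKM in Stage 1 (log2 change 1.33, SE 0.07, limma adjusted p = 3.41e-08). The autophagy receptor SQSTM1 had 516, 527 and 507 RPKM in Stage 3+DMSO and 227, 245 and 239 RPKM in Stage 1, and the groups did not overlap for either gene. TFEB, a transcription factor of lysosomal genes, did not pass (log2 change 0.08). Of 21 NRF2 targets and iron storage genes 12 were higher and 4 lower (median 0.35). FTL, the ferritin light chain, had 4163, 4165 and 4296 RPKM in Stage 3+DMSO and 1211, 1386 and 1390 RPKM in Stage 1. The 12 include TXNIP, an inhibitor of thioredoxin and of glucose uptake, whose place in this group does not make it an NRF2-induced gene. TXNIP was spread widely, with 41.7, 12.7 and 7.47 RPKM in Stage 3+DMSO and 0.527, 0.756 and 0.638 RPKM in Stage 1 (log2 change 3.38, or 2.71 without Stage 3+DMSO replicate 1).

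Cytokines and prostaglandin synthesis were lower in 10 of 22 members and higher in 5 (median log2 change -0.25). IL6, the inflammatory cytokine, had 29.6, 18.3 and 19.4 RPKM in Stage 3+DMSO and 138, 132 and 120 RPKM in Stage 1 (log2 change -2.51, SE 0.15, limma adjusted p = 7.14e-08). A near copy named IL-6 on the same chromosome changed alike (-2.51) and may share its reads. PTGS2, the inducible cyclooxygenase, had 61.4, 54.6 and 55.6 RPKM in Stage 3+DMSO and 257, 326 and 252 RPKM in Stage 1, and CCL2, a monocyte attractant, 549, 526 and 545 RPKM against 1368, 1562 and 1500 RPKM. Members in the other direction were VCAM1, an adhesion molecule for leukocytes (log2 change 1.35), and NFKBIA, the inhibitor of NF-kB (1.12).

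Complement and acute-phase genes rose in 13 of 17 members and fell in 1 (median log2 change 0.75). Without Stage 3+DMSO replicate 1, 12 were higher and 1 lower, with a median of 0.54. SAA3, an acute-phase serum amyloid, had 57.1, 44.5 and 82.8 RPKM in Stage 3+DMSO and 4.94, 6.01 and 3.54 RPKM in Stage 1 (log2 change 3.40, SE 0.25, limma adjusted p = 4.40e-07). LCN2, an iron-siderophore-binding lipocalin, had 72.7, 92.6 and 106 RPKM against 8.66, 13.9 and 10.01 RPKM in Stage 1. PTX3, a soluble pattern receptor, was the member that fell (log2 change -0.84).

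Several interferon-induced genes were high mainly in a single culture. Of 23 tested members 5 were higher (21.7%, against 30.5% of all tested genes) and none lower (0). STAT2, a transcription factor of the interferon response, was higher in all 3 cultures, with 50.7, 36.7 and 40.1 RPKM in Stage 3+DMSO and 23.0, 23.1 and 23.5 RPKM in Stage 1 (log2 change 0.83, limma adjusted p = 2.15e-05). IFIT1, which binds viral RNA, had 63.6, 3.73 and 4.45 RPKM in Stage 3+DMSO and 1.45, 3.47 and 0.993 RPKM in Stage 1, so that replicate 1 carried the difference (log2 change 2.08, limma adjusted p = 0.0421). IFIT1 did not pass without that library, nor without Stage 1 replicate 1 or 3 (adjusted p = 0.102, 0.0993 and 0.119, in a range of 0.0159 to 0.119). Its call was lost in 10 of 16 alternatives in all, both rescalings and limma-voom among them. Without Stage 3+DMSO replicate 1 the group counted 2 higher and 5 lower, with a median log2 change of -0.11 in place of 0.50.

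Signalling genes moved in both directions within most pathways. Of 31 BMP and TGF-beta genes 16 were higher and 3 lower (median log2 change 0.26), or 7 lower after median-ratio rescaling. The BMP antagonists split. CHRD, or chordin, had 150, 101 and 105 RPKM in Stage 3+DMSO and 33.9, 37.4 and 35.2 RPKM in Stage 1 (log2 change 1.69), and GREM1, or gremlin, 2.73, 1.16 and 1.12 RPKM in Stage 3+DMSO and 10.1, 11.6 and 13.2 RPKM in Stage 1 (log2 change -2.29). INHBA, a subunit of activin, fell by 0.83 and SMAD9, which carries BMP signals, by 0.35 on the log2 scale.

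Of 19 Wnt genes 10 were higher and 3 lower (median log2 change 0.40). LEF1, a transcription factor at the end of the pathway, had 11.5, 13.7 and 10.6 RPKM in Stage 3+DMSO and 1.99, 2.32 and 1.94 RPKM in Stage 1 (log2 change 2.06), whereas its relative TCF7 had 3.41, 4.27 and 4.08 RPKM against 7.77, 8.08 and 7.91 RPKM in Stage 1. Of 11 Notch genes 6 were higher and 2 lower, or 3 higher after median-ratio rescaling. NOTCH3, a receptor, had 25.034, 18.545 and 17.005 RPKM in Stage 3+DMSO and 4.81, 3.99 and 3.60 RPKM in Stage 1 (log2 change 2.04), and the target gene HES1 7.66, 9.33 and 8.87 RPKM against 3.21, 2.61 and 2.96 RPKM. A further ID named NOTCH3 changed by 1.91. Of 11 genes of the IGF axis 5 were higher and 1, IGF1, lower. Immediate early genes split, with 8 of 18 higher and 7 lower.

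Nuclear transport genes differed little, with 5 of 36 higher and 9 lower (median log2 change -0.03), or 1 higher and 12 lower after median-ratio rescaling. XPO1, the main nuclear export receptor, had 26.7, 22.4 and 21.8 RPKM in Stage 3+DMSO and 30.7, 33.8 and 34.5 RPKM in Stage 1 (log2 change -0.47, SE 0.16, limma adjusted p = 0.0296). It no longer passed without Stage 3+DMSO replicate 2 or 3, without Stage 1 replicate 2 or 3, or with no filter on low values (adjusted p = 0.0811, 0.0906, 0.0752, 0.0820 and 0.0539, in a range of 0.00281 to 0.0906). Of 41 cytoplasmic ribosomal protein genes 15 were lower and none higher (0), with a median of -0.14, or 31 lower after median-ratio rescaling.

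The course from Stage 1 through Stage 2 placed most large changes. For each of the 965 genes that changed at least 2-fold, the share of the log2 change already present at Stage 2 was taken. A change counted as gradual when both steps passed the test and this share lay between 0.25 and 0.75, and as a single early or late step when the share was at least 0.75 or at most 0.25. Gradual changes were the most frequent, with 269 of 668 rises and 109 of 297 falls. Late steps made up 184 rises and 58 falls and early steps 103 rises and 66 falls, and 57 genes turned back, meaning that their steps passed in opposite directions. The other 119 could not be placed. As shares of all tested genes these were 2.90% gradual, 1.85% late, 1.30% early and 0.437% turned back. Over all tested genes the first step held 2127 higher (16.3%) and 3181 lower (24.4%), and the second 4309 higher (33.0%) and 1446 lower (11.1%). These splits are given on the deposited scale only. The Stage 2 libraries enter both steps, so the classes are descriptions.

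**Figure D4:**
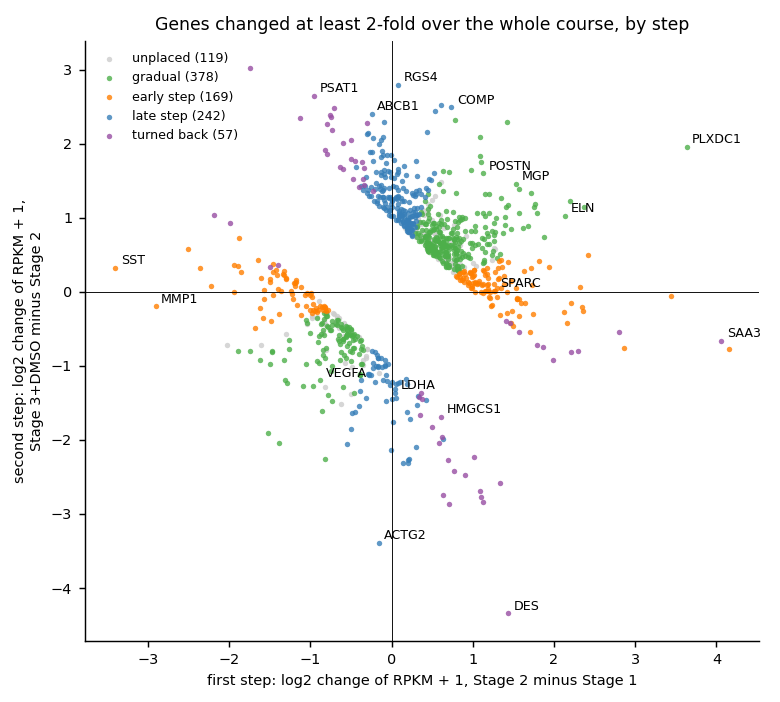
Log2 change of RPKM + 1 from Stage 1 to Stage 2 (horizontal axis) against that from Stage 2 to Stage 3+DMSO (vertical axis) for the 965 genes changed at least 2-fold between Stage 3+DMSO and Stage 1, 1 point a gene, coloured by class. Points along an axis changed in a single step, and points in the upper right and lower left quadrants moved the same way at both steps. Points in the other quadrants had steps of opposite sign. Both of these steps passed only in the 57 genes that turned back, DES and PSAT1 among them.

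MGP was among the gradual rises. It had 548 ± 29.8, 1589 ± 60.1 and 4378 ± 532 RPKM at Stage 1, Stage 2 and Stage 3+DMSO (SD, n = 3 each), with log2 changes of 1.53 and 1.46 at the first and the second step. All 3 inhibitors that changed at least 2-fold (MGP, ANKH and GAS6) were gradual, as were 9 of the 10 lysosomal genes that did. PLXDC1 rose by 3.63 and then by 1.96, and TIMP3 by 0.97 and then by 1.65. Gradual falls included ACTA2 (-0.54 and -0.57), RUNX2 (-0.48 and -0.65), VEGFA (-0.88 and -1.20), PTGS2 (-1.33 and -0.93) and LOXL4 (-1.06 and -0.98).

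Early steps were those with at least 0.75 of the log2 change present at Stage 2 (day 8). SPARC averaged 6671, 16041 and 16222 RPKM at Stage 1, Stage 2 and Stage 3+DMSO, with log2 changes of 1.27 and 0.01. MMP1 averaged 77.6, 9.53 and 8.26 RPKM over the same stages, and SST 14.9, 0.508 and 0.917 RPKM. Other early rises were C7, PLK2, EGLN3, NOTCH3, ASPN and LOXL1, and the glycolytic enzyme HK2 was an early fall (-1.69 and -0.49). The second step did not pass for any of these.

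Late steps had at most 0.25 of the log2 change present at Stage 2. ACTG2 averaged 209, 190 and 17.6 RPKM at Stage 1, Stage 2 and Stage 3+DMSO, with log2 changes of -0.16 and -3.39. TIMP1 averaged 2898, 2930 and 880 RPKM, LDHA 2719, 2809 and 1093 RPKM and CCL2 1477, 1482 and 540 RPKM. None of these 4 first steps passed. Among late rises COMP averaged 0.551, 1.58 and 13.6 RPKM and RGS4, a regulator of G-protein signalling, 8.40, 8.78 and 70.6 RPKM. ABCB1, a drug efflux pump, averaged 12.0, 9.99 and 58.1 RPKM, and COL14A1, CHRD, LEF1 and MMP14 were late as well. Part of some late rises came at the first step, which passed for COMP (log2 change 0.74), CHRD (0.36), MMP14 (0.32) and LEF1 (0.30). The solvent was given at Stage 3, so DMSO and stage cannot be told apart for this step.

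Of the 57 genes that turned back, 24 rises and 19 falls had first moved the other way, and 10 rises and 4 falls had gone past their end level at Stage 2. Of the 6 amino acid and integrated stress response genes that changed at least 2-fold over the whole course, 5 first fell and then rose. They were PSAT1, ATF5, SESN2, ASNS and ALDH1L2, enzymes and regulators of amino acid supply, of which the last pair was named after its values were seen. PSAT1 averaged 184, 94.6 and 600 RPKM at Stage 1, Stage 2 and Stage 3+DMSO. The group's median log2 change was -0.71 at the first step and 1.38 at the second. DES averaged 45.5, 126 and 6.17 RPKM, and FABP3, a fatty acid carrier of muscle, 340, 719 and 113 RPKM. SAA3 went past its end level, with 4.83, 96.7 and 61.4 RPKM.

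The comparison of the ends hides reversals of this kind in genes that are not called. Of the 6820 genes not called over the whole course, 1449 had both steps called in opposite directions, 1143 of them down and then up and 306 up and then down. All tested genes had median log2 changes of -0.05 and 0.15 at the first and the second step. The counts are on the deposited scale only, and how far their split depends on the scale was not tested. Mitosis genes had median log2 changes of -1.33 and 0.99 at the first and the second step, and S phase genes of -0.56 and 0.90. Glycolysis genes had medians of 0.05 and -0.79, and cholesterol genes of -0.07 and -0.76, so that these groups moved mostly at the second step. YAP-type genes moved mostly at the first, with medians of -0.54 and -0.06. Proteoglycans had medians of 0.59 and -0.27 and collagens of 0.27 and -0.23.

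**Figure D5:**
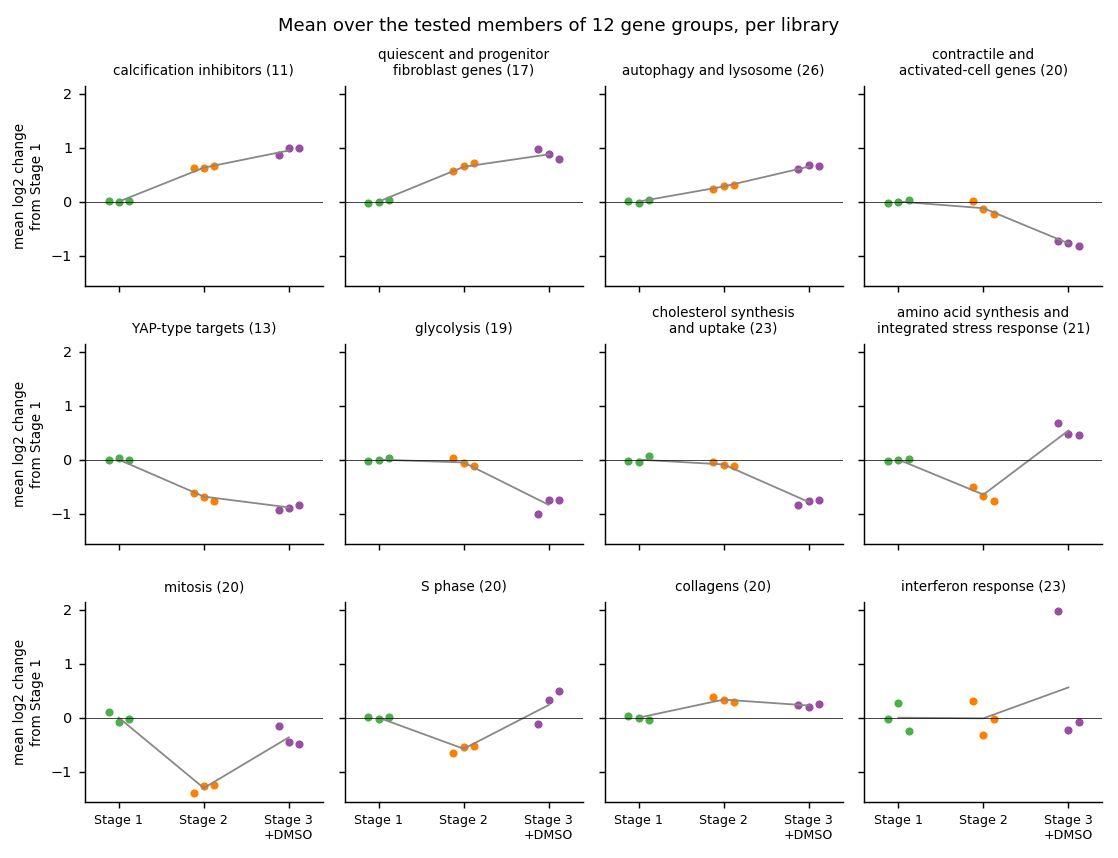
Mean log2 change of RPKM + 1 from the Stage 1 mean (vertical axes) over the tested members of 12 gene groups (number tested in brackets) in each library of Stage 1, Stage 2 and Stage 3+DMSO (horizontal axes), with dots for libraries and lines joining stage means. Mitosis and stress response genes dip at Stage 2, glycolysis and cholesterol genes fall after it, and for interferon response the first Stage 3+DMSO library (1.98) stands far above the other 2 (-0.22 and -0.07).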

How the data were processed

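Messenger RNA of 12 libraries was prepared from 500 ng of total RNA each with the TruSeq Stranded mRNA kit, per the labels' protocols. The aligner was TopHat2 2.1.0, according to the submitters' processing notes; counter, build and annotation are not given. RPKM values as deposited by the authors cover 22861 genes and 189618 exons. A symbol was found for 15203 genes in the gene table, for 1715 by gene ID and for 627 by Entrez number. Use of strand in counting is not stated, so overlapping or antisense genes may share reads. A symbol with several IDs is uncertain, and groups used the ID with the highest mean.

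RPKM times exon length and library total gave whole reads for 100% of gene values (tolerance 0.001 of a read); reads over genes exceed the library total, for a reason not given. limma 3.58.1 (R 4.3.3) was fitted to log2(RPKM + 1) of all 12 libraries, 1 coefficient a group, with an expression trend. The Stage 3+KPT libraries entered only the shared spread. Genes with at least 1 RPKM in at least 3 libraries were tested, and a Benjamini-Hochberg adjusted p under 0.05 was called. The pseudocount of 1 understates changes of low genes. The fit was tested on simulated counts that had a fixed spread and no outlying library, unlike the real ones. Single values had exact permutation tests, two-sided, in scipy 1.17.1.

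Genes were named by rule: the 15 largest rises and falls with a symbol, separate libraries and at least 5 RPKM, up to 3 called members per direction of each of 44 groups, 6 per step class and direction, and a panel of 25. Some were left out for length or are not reported here, and other members are named, after their values were seen, to complete a group. Members, groups and rules were chosen with earlier results of these data known. Groups are described by counts and medians, with no set test. The adipocyte group had 1 tested gene (0 called), the neural group 2 (TUBB3 lower), the skeletal muscle group 2 (both lower), the leukocyte group 4 (1 higher, 2 lower) and the cardiomyocyte group 3 (1 higher, 1 lower). Of 9 endothelial genes 1 was higher and 1 lower, and of 10 valve interstitial and fibroblast markers 7 were higher and 2 lower. The alternatives were other pseudocounts, filters, scalings, weights and thresholds, no trend, the compared groups alone, a replicate block, limma-voom on the recovered reads and leaving out each library.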

Additional observations from a re-analysis of the deposited data

How the results depend on the processing

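No gene changed sign in the alternative runs where its call was lost or gained. This does not cover genes with changes near 0 that were not called, whose sign can depend on the scale. Medians of 5 groups changed sign. Higher and lower calls stayed within 1.5 times of 3975 and 2251, and ranged over 3392 to 3782 and 1862 to 2178 when 1 library was left out. At least 2-fold changes ranged over 659 to 709 higher and 287 to 304 lower with 1 library left out. They were 990 and 403 with a pseudocount of 0.1, 977 and 445 with limma-voom, and 503 and 422 after quantile normalization. The step classes depended on the settings more. With a pseudocount of 0.1 there were 186 early rises, 95 late falls and 52 rises that turned back. With limma-voom on recovered reads these were 173, 95 and 56, beside 103 early falls. Median-ratio rescaling gave 98 late falls and 22 rises that turned back, and quantile normalization 101 and 21, beside 105 late rises. A minimum of 5 RPKM gave 43 early falls, and library quality weights 37 falls that turned back. Among changes of at least 2 on the log2 scale, rises and falls were 44 and 20 gradual, 11 and 5 early, 9 and 10 late, and 2 and 3 turned back. The cause of these shifts was not tested, except that the last setting keeps fewer genes by its construction.

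The share of higher among called genes was 63.8% as deposited, 48.4% after median-ratio rescaling and 48.1% after quantile normalization. The interferon median was -0.11 without Stage 3+DMSO replicate 1. With a minimum of 5 RPKM the elastic fibre median was -0.07 and the endothelial median 0.24 in place of -0.22. Growth arrest genes had -0.05 after either rescaling and -0.03 without Stage 3+DMSO replicate 3, and cardiomyocyte markers -0.01 after quantile normalization and -0.07 without Stage 1 replicate 1. Deviations of same-numbered Stage 3+DMSO and Stage 1 libraries correlated at 0.034 to 0.057, and those of differently numbered ones at -0.056 to 0.029. Whether same-numbered cultures share an animal was not tested. A replicate block gave 3888 higher and 2190 lower. Genes near 1 RPKM, such as BGLAP, rest on few reads, and small changes in them were not detectable at this depth.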
